A study of Caenorhabditis elegans with 2 samples.

Results

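The small-subunit cytosolic ribosomal protein genes of Caenorhabditis elegans were taken as all protein-coding genes whose Ensembl WBcel235 symbol begins with rps-, which gave 31 genes, rps-0 to rps-30, of 19973 protein-coding genes on the 6 nuclear chromosomes. They lay on chromosomes I (8 genes), II (1), III (9), IV (10) and V (3), with none on X. The mitochondrial mrps- genes were not members. The small-subunit proteins encoded by ubl-1 and rack-1 fall outside the symbol rule and are given beside the members.

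The small ribosomal subunit binds messenger RNA and the initiator tRNA and reads codons. Its proteins enter the subunit in equal numbers, although their genes are scattered over the genome, and those genes are among the most strongly transcribed in growing animals. Cohesin is a ring complex built on a pair of SMC proteins, of which HIM-1 is the worm SMC1. It holds sister chromatids together and also occupies chromatin at active promoters and other regulatory sites. Many worm messenger RNAs are trans-spliced to a leader RNA, so an annotated 5' end can be the splice site and need not be the place where transcription starts.

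The data were ChIP-seq peak lists of HIM-1 carrying a C-terminal GFP-FLAG tag (HIM-1-eGFP), from whole hermaphrodites of strain YL576 at the L4/young adult stage. Worms were collected 51 hours after release of synchronized, starved L1 larvae. There was 1 group with 2 biological replicates from separate biosamples of 1 strain, no second condition, and no untagged control immunoprecipitation was analysed here. The labels give neither the promoter of the transgene nor the level of untagged HIM-1. The labels name GFP as the antibody's target in the free text and him-1 in the antibody field.

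The 4 lists were in the ce11 build, the same assembly as WBcel235. The optimal list, which the authors thresholded by the irreproducible discovery rate (IDR), held 1797 entries. The pooled list, derived from both replicates' alignments, held 12228 entries, while those of replicates 1 and 2 held 16213 and 15469, all with background entries included. The signal value is the authors' own, its scale is unknown, and it was compared only within a list, where rank 1 is the highest. A summit is the single position the authors give within each entry. Read depth is unknown, so no interval or detection limit could be given. In whole worms, HIM-1 in fewer cells and less HIM-1 per cell cannot be told apart.

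HIM-1 peaks of the optimal list lay upstream of about as many rps genes as not. Within 1000 bp of a 5' end, 15 of 31 rps genes (48.4%) had a summit of the optimal list, against 6.08% of all protein-coding genes. They were rps-1, rps-4, rps-11, rps-12, rps-14, rps-15, rps-18, rps-19, rps-20, rps-23, rps-24, rps-25, rps-26, rps-28 and rps-29. Each of the 15 had its own entry, and each of the 15 summits lay upstream of the gene, between 164 and 507 bp from the 5' end. In the pooled list, which keeps background entries, 29 of 31 rps genes had a summit, against 25.2% of all protein-coding genes. With genes as units and 1 group of samples, no test of these shares was made.

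The sequences under 5 of these peaks are shown, that of rps-1 for its high signal, and those of the others because rps-4, rps-11, rps-25 and rps-29 share the letters described next. Each is the 201 bp centred on the optimal summit in WBcel235, read 5' to 3' on the strand of the gene, so that the gene lies beyond the right end. The regions are chrIII:4475566-4475766 (plus strand), chrIV:7084810-7085010 (minus), chrIV:11602218-11602418 (plus), chrIV:5947811-5948011 (minus) and chrIII:793693-793893 (plus), from the RefSeq copy of the assembly. Capitals mark a match on either strand to any of the 7 motifs searched, of which rps-1 had none.
rps-1: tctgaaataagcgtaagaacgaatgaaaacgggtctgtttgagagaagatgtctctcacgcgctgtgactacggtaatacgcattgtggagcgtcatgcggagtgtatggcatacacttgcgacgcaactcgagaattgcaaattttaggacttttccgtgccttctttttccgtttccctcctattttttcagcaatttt
rps-4: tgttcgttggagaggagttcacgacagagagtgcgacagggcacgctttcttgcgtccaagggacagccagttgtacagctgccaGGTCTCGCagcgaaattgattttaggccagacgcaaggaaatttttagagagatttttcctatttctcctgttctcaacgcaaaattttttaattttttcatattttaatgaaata
rps-11: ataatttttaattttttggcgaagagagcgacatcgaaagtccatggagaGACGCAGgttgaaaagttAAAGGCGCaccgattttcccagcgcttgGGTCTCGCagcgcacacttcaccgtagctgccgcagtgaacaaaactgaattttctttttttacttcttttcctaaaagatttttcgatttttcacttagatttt
rps-25: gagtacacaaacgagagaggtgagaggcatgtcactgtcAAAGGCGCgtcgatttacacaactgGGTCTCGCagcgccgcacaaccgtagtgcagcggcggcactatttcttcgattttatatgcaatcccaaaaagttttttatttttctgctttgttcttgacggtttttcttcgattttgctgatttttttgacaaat
rps-29: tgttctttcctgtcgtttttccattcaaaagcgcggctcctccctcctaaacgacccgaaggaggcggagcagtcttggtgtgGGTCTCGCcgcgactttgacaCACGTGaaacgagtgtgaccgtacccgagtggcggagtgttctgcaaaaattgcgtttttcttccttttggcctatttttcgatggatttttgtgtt

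The letters GGTCTCGC, on either strand, lay within 100 bp of the optimal summit at rps-4, rps-11, rps-25 and rps-29, which is 4 of 15 rps genes (26.7%), against 3.56% of all 1797 optimal summits and 6.39% of the 876 that lay, like those of the rps genes, within 1000 bp upstream of a gene. They were also at 4 of the 14 rps genes with a pooled entry only, namely rps-7, rps-8, rps-21 and rps-30. The letters AAAGGCGC lay at rps-11, rps-18, rps-24 and rps-25, again 4 of 15 (26.7%), against 2.06% of all optimal summits and 3.20% of the 876, and at rps-2, rps-3, rps-7 and rps-17 among the 14. Over 201 bp windows centred 296 bp upstream of every protein-coding gene, 1.17% held the first and 1.59% the second. Both motifs were picked after the sequences of these peaks had been read, so these counts are a description. Among the 27 rpl (large-subunit) genes with an optimal entry, of which rpl-36 shares its entry with rps-14, 7 held GGTCTCGC (25.9%) and 4 held AAAGGCGC (14.8%).

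The other 5 motifs were each at 2 or fewer of the 15 rps summits. The Sp1-like GGGCGG was found at rps-19 and rps-28 (13.3%), against 11.2% of all optimal summits and 12.4% of the 876. The E-box CACGTG was found at rps-29 alone, against 4.06% of all optimal summits, and CTGCGTC at rps-11 alone, against 15.6%. GAGAGAGA (13.1% of all optimal summits) and the E2F-like TTTCGCGC (2.23%) were at none of the 15. The search covered both strands and 100 bp to either side of the summit. In the windows 296 bp upstream of every protein-coding gene, 3.79% held GGGCGG, 1.72% GAGAGAGA, 3.17% CACGTG, 2.49% CTGCGTC and 0.796% TTTCGCGC.

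Base composition differed along the peaks. The median GC content of the 201 bp windows was 42.3% at the 15 rps summits (34.3 to 50.2), against 45.8% at all optimal summits, whose interquartile range was 40.8 to 50.2%. On the gene's side of the summit the median share of T was 40%, while on the far side it was 23%. The gene's side held more T at 14 of 15 rps genes (93.3%), against 60.8% of the 1062 protein-coding genes whose optimal summit lay upstream, where the medians were 31% and 27%. The rpl genes had medians of 33% and 25%, with more T on the gene's side at 20 of 25. This comparison was also chosen after the sequences were seen.

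**Figure D1:**
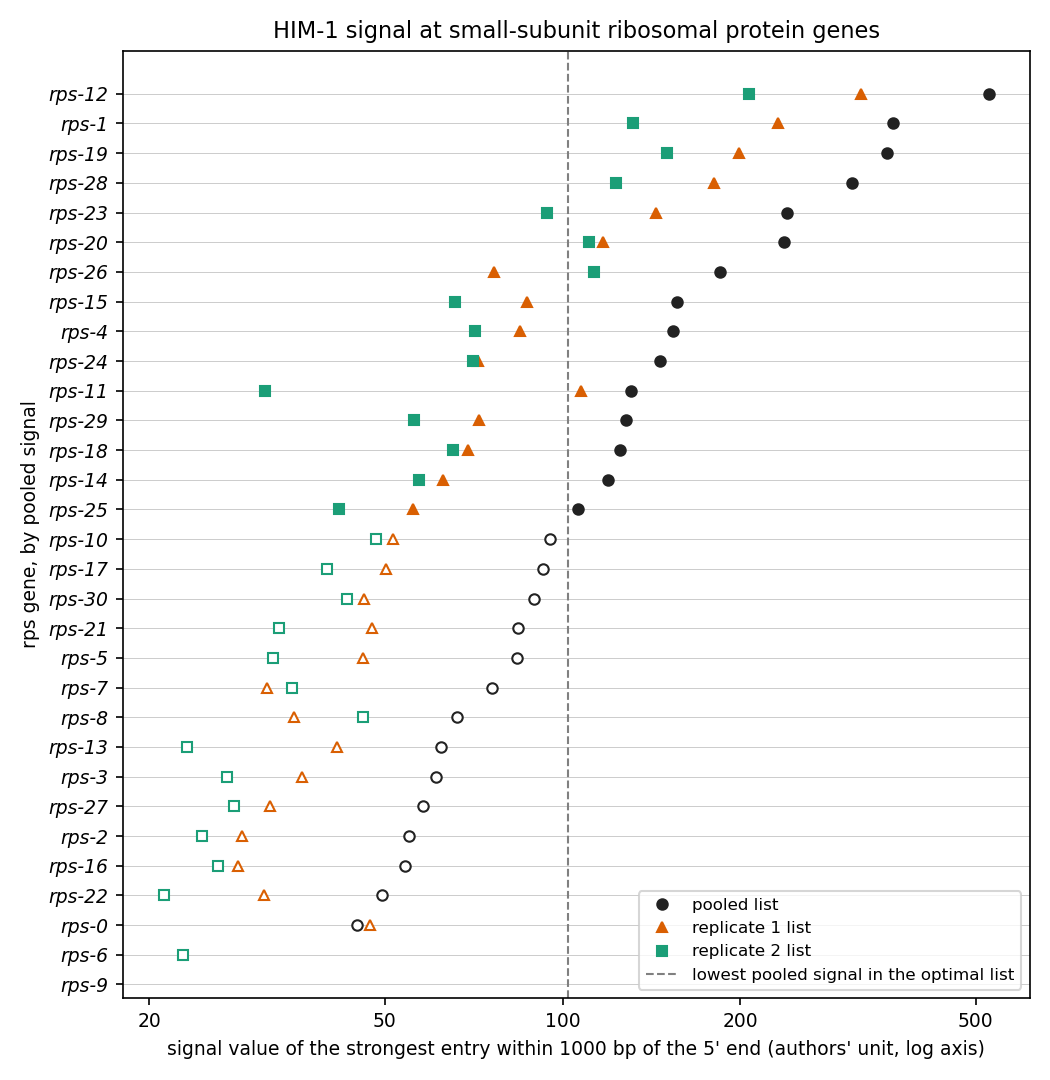
Signal value (horizontal log axis, authors' unit) of the strongest entry within 1000 bp of a 5' end for each of the 31 rps genes, in the pooled list (circles), replicate 1 (triangles) and replicate 2 (squares); filled symbols are the 15 genes with an optimal entry, and the dashed line is the lowest pooled signal in the optimal list, 102.0. The signals of rps-12, rps-1, rps-19 and rps-28 stand at the top in the pooled list, rps-11 differs most between replicates among the 15, rps-26 is the one of the 15 with replicate 2 above replicate 1, and rps-9 has no entry in any list.

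The signals of the 15 genes spanned 4.95-fold, from rank 23 at rps-12 to rank 1665 at rps-25. Their median signal was 156, close to the 150 of all 1214 protein-coding genes with an optimal entry, and their median rank was 765 of 1797, against 845 for those genes. Both medians cover only genes above the threshold of the optimal list. In the pooled list the median was 106 (rank 1665) over 29 rps genes, against 63.1 (rank 4640.5) over 5026 protein-coding genes. Within the optimal list 6 of the 15 (40.0%) ranked 250 or better, against 15.6% of the 1214. The cutoff equals the rank of rps-20 (250), and rps-23 ranked 241, so this share depends on where the cutoff is set. Of the 15 entries, 13 carried the highest −log10 q-value of the list, 3.41, so q-values did not rank them.

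Proteins of the head of the subunit accounted for 8 of the 15, out of 13 head proteins among the members, and proteins of the body and platform for 7 of 18. Of all protein-coding genes 6.08% had an optimal entry. The median optimal signal was 197 for the head genes and 154 for the body and platform genes. The roles come from ribosome structures of other eukaryotes, and the grouping was made with the values known, so no test was made.

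The head gene rps-12 had the highest signal of all members. It encodes eS12, which in Drosophila takes part in sensing ribosomal protein gene dose. Its entry at chrIII:5679015-5679245 had a signal of 526 in the pooled list (rank 23), 320 in replicate 1 and 207 in replicate 2, with the summit 164 bp upstream. Among the 15, this was the summit nearest to its gene.

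Next among the head genes came rps-19, encoding eS19, the protein most often mutated in human Diamond-Blackfan anaemia. Its entry at chrI:9625849-9626318 had a pooled signal of 353 (rank 68), with 199 in replicate 1 and 150 in replicate 2. The gene rps-28, for eS28 near the mRNA exit, had 309 at chrIV:1659013-1659482 (rank 108), with 181 in replicate 1 and 123 in replicate 2. Both replicates placed its summit at the same base, 443 bp upstream, and the pooled list held a second, weaker entry 244 bp upstream (signal 86.0). The gene rps-20, for uS10, had 237 at chrI:14469117-14469586 (rank 250), with 117 in replicate 1 and 111 in replicate 2. These 3 signals lay in the top 250 of the optimal list.

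The remaining head genes had signals nearer the threshold. The gene rps-15, for uS19, whose tail reaches the decoding site, had 156 at chrI:8816314-8816783 (rank 765), with 87.0 in replicate 1 and 65.7 in replicate 2. The gene rps-29, for the zinc-binding uS14, had 128 at chrIII:793558-794027 (rank 1167), with 72.3 in replicate 1 and 56.1 in replicate 2, and its summit was the farthest, 507 bp upstream. The gene rps-18, for uS13 at the contact with the large subunit, had 125 at chrIV:14824981-14825450 (rank 1220), with 69.3 in replicate 1 and 65.2 in replicate 2. Last was rps-25, for eS25, which some viral internal ribosome entry sites need in other eukaryotes. It had 106 at chrIV:5947676-5948145 (rank 1665), with 55.8 in replicate 1 and 41.9 in replicate 2. It was the member just inside the threshold of the optimal list, whose lowest signal was 102.0. Just outside lay rps-10, with 95.4 in the pooled list.

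Among the body and platform genes rps-1 led. It encodes eS1, which lines the mRNA exit on the platform, and its entry at chrIII:4475598-4475738 had a pooled signal of 362 (rank 64), with 232 in replicate 1 and 132 in replicate 2. The gene rps-23, for uS12 of the decoding centre, had 239 at chrIV:12391104-12391573 (rank 241), with 144 in replicate 1 and 94.2 in replicate 2. The gene rps-26, for eS26, which contacts mRNA upstream of the start codon, had 185 at chrI:14759264-14759733 (rank 526), with 76.7 in replicate 1 and 113 in replicate 2. It was the single gene of the 15 with the higher value in replicate 2.

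The other body and platform genes had pooled signals of 119 to 154. The gene rps-4, for eS4, had 154 at chrIV:7084675-7085144 (rank 793), with 84.7 in replicate 1 and 71.1 in replicate 2. The gene rps-24, for eS24, had 146 at chrIV:385356-385825 (rank 883), with values close to each other, 72.0 in replicate 1 and 70.4 in replicate 2. The gene rps-11, for uS17, had 131 at chrIV:11602083-11602552 (rank 1123), with 107 in replicate 1 and 31.4 in replicate 2. It ranked 555 in replicate 1 and 3689 in replicate 2. The gene rps-14, for uS11 of the platform, had 119 at chrIII:7179566-7180035 (rank 1320), with 62.8 in replicate 1 and 57.2 in replicate 2.

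**Figure D2:**
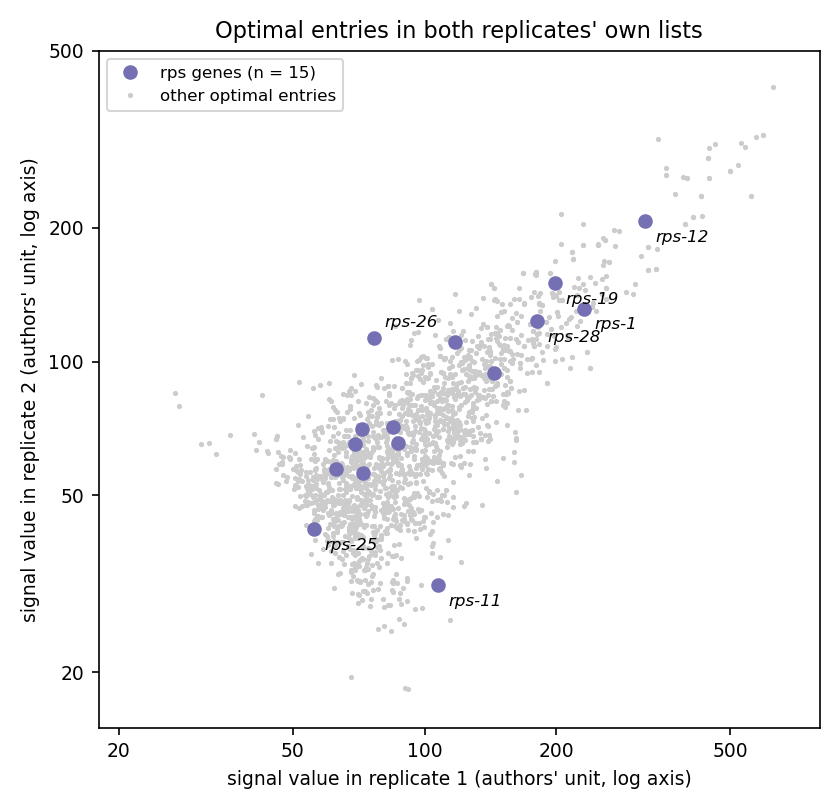
Signal value of each optimal entry in replicate 1 (horizontal log axis) and replicate 2 (vertical log axis), taken from the strongest overlapping entry of each replicate's own list; large points are the 15 rps genes and small points the other optimal entries. The rps genes lie within the cloud, except that rps-11 (107 and 31.4) and rps-26 (76.7 and 113) lie at its lower and upper edge.

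The order of the 15 genes was similar in the replicates. Spearman's rho of the replicates' signals was 0.782 across the 15 rps genes and 0.702 over all 1797 optimal entries. Each of the 15 entries had the same rank in the optimal list as in the pooled list, down to rank 1665 at rps-25. To that rank the optimal list followed the pooled signal, so entries were selected with data of both replicates. The lists of both replicates also share the input behind the authors' control-normalized tracks, so the 2 orders are not fully independent. The ratio of replicate 1 to replicate 2 had a median of 1.32 over the 15 rps genes, with extremes of 0.678 at rps-26 and 3.41 at rps-11, against a median of 1.41 over all optimal entries, of which the middle 80% lay between 0.998 and 2.03. The replicates' summits lay a median of 27 bp apart at the rps genes (at most 82 bp, at rps-18), against 31 bp over all optimal entries.

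Each replicate alone gave nearly the same set, which is partly ensured because the optimal list was made from both replicates. When the list of replicate 1 was cut to its 1797 highest signals, summits lay within 1000 bp of 14 of 31 rps genes, against 5.8% of all protein-coding genes, and the missing gene of the 15 was rps-25. In replicate 2 the same cut gave 15 of 31 rps genes, against 6.29% of all, with 13 of the 15 among them. It left out rps-11 and rps-25 and added rps-8 and rps-10. The full list of replicate 1 had a summit at 29 of 31 rps genes (29.9% of all protein-coding genes), and that of replicate 2 at 29 of 31 (31.5% of all).

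The 16 rps genes with no optimal entry mostly had weak entries upstream. In the pooled list 14 of them had a summit within 1000 bp, with signals from 44.9 to 95.4 and ranks from 2020 to 10628 of 12228, and for 12 of the 14 the strongest summit lay upstream. The highest were rps-10 (signal 95.4, rank 2020), for eS10 of the head, rps-17 (92.8, rank 2120), for eS17, and rps-30 (89.5, rank 2261), whose protein eS30 is made as a fusion to a ubiquitin-like domain. In the replicates rps-10 had 51.6 in replicate 1 and 48.4 in replicate 2, rps-17 had 50.3 and 39.9, and rps-30 had 46.2 and 43.2. The genes rps-21 (83.9), rps-5 (83.9), rps-7 (75.9), rps-8 (66.2), rps-13 (62.3), rps-3 (61.0), rps-27 (58.1), rps-2 (55.0), rps-16 (54.0), rps-22 (49.4) and rps-0 (44.9) followed.

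Some of these weak entries were not shared by the replicates or lay past the 3' end of the rps gene. The entry of rps-0, which encodes uS2, overlapped one in replicate 1 (signal 47.2) and none in replicate 2. At rps-8 the strongest entry lay 240 bp upstream in the pooled list and 300 bp upstream in replicate 2. That of replicate 1 lay 548 bp downstream, just past the end of the gene. At rps-22, for uS8, and rps-16, for uS9, the strongest pooled summits lay 953 and 714 bp downstream of the 5' end. Both were past the end of the rps gene and inside a neighbour. They lay 87 bp downstream of the 5' end of F53A3.7 and 112 bp downstream of that of T01C3.11. A second pooled entry of rps-22, with a signal of 48.0 against 49.4 for the first, lay 97 bp upstream, and its strongest entry in replicate 1 lay 102 bp upstream. The rps-16 gene starts 109 bp after the end of fib-1, the nucleolar fibrillarin gene, on the same strand. An optimal entry (signal 153) lay 76 bp upstream of fib-1, which is 1758 bp upstream of rps-16.

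Neither rps-6 nor rps-9 had a pooled entry within 1000 bp. The gene rps-6 encodes eS6, the substrate of S6 kinase, and had a single weak entry, in replicate 2 (signal 22.8), 345 bp downstream of a 5' end. The gene rps-9, for uS4 at the mRNA entry, had no entry in any of the 4 lists. By chromosome, the members with an optimal entry were 4 of 8 on I, 4 of 9 on III and 7 of 10 on IV, against none of 1 on II and none of 3 on V. Of all protein-coding genes 8.93% had one on I, 8.86% on III, 5.18% on IV, 5.51% on II and 3.52% on V.

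**Figure D3:**
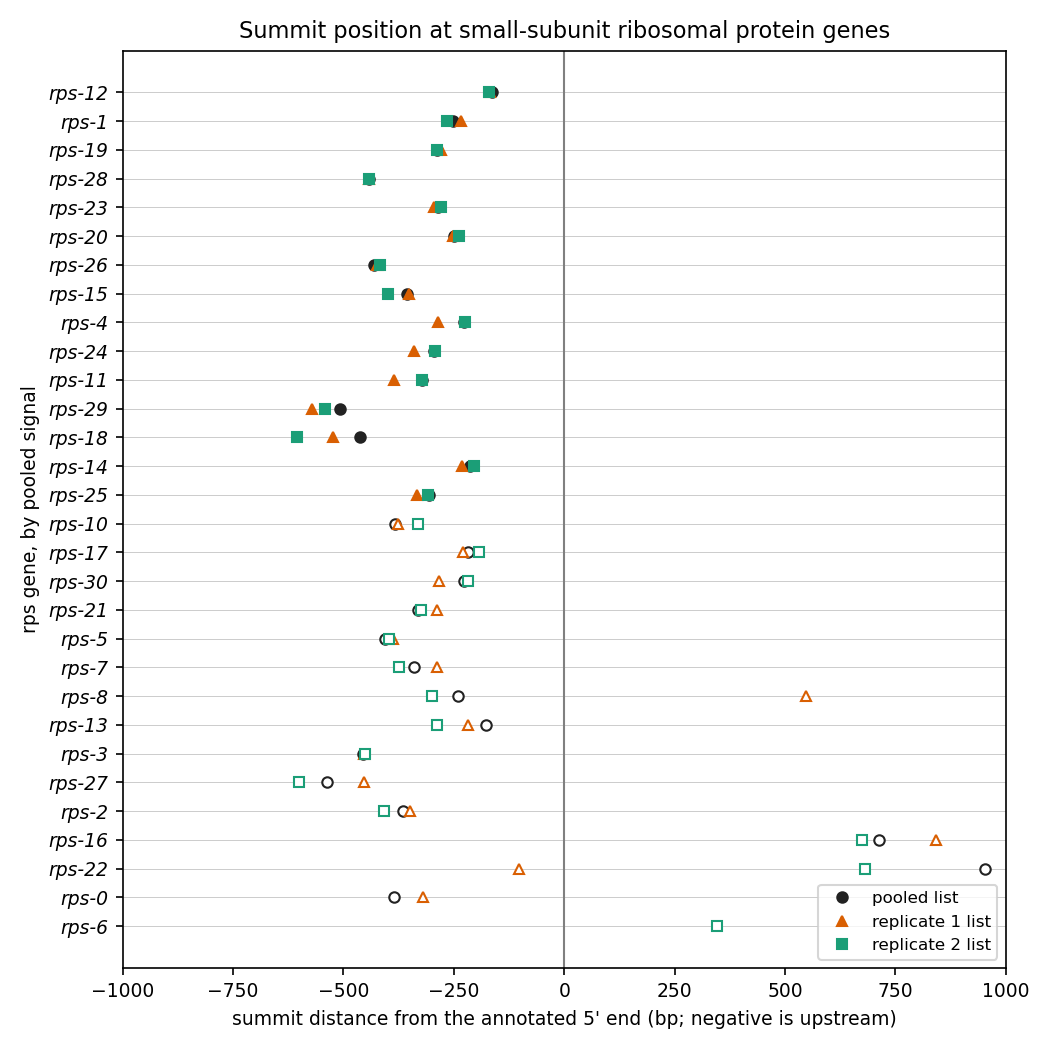
Distance in bp from the annotated 5' end (vertical line at 0, upstream to the left) to the summit of the strongest entry within 1000 bp, for the 30 rps genes with an entry in the pooled list (circles), replicate 1 (triangles) or replicate 2 (squares); filled symbols are genes with an optimal entry. The filled symbols lie upstream, with pooled summits at 164 to 507 bp, and the symbols to the right of 0 belong to rps-6, rps-8, rps-16 and rps-22.

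The summits kept a narrow distance from the 5' end. At the 15 rps genes the median signed distance was -296 bp (interquartile range -393.5 to -250.5), whereas at all 1214 protein-coding genes with an optimal entry it was -236 bp (-439 to -103). Between 200 and 500 bp upstream lay 13 of the 15 rps summits (86.7%), against 35.1% of the 1214. The limits of this interval enclose the interquartile range of the rps summits, so a high rps share follows partly from them and is a description. Among the 27 rpl genes the median was 330 bp upstream, and 21 (77.8%) lay in that interval. The annotated 5' ends of rps genes lie close to the start codon, a median of 11 bp before it (1 to 141), so the summits were nearly as far from the start codons.

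With shorter windows fewer rps genes had a summit. Within 500 bp, 14 of 31 rps genes (45.2%) had an optimal summit, against 4.5% of all protein-coding genes, the lost gene being rps-29. Within 250 bp it was 4 of 31 (12.9%), against 2.85%. Those 4 were rps-4, rps-12, rps-14 and rps-20. The entries were 470 bp wide at 13 of the 15 rps genes, with the summit at their midpoint. This fixed width does not show how finely a summit is placed. The replicates' summits at the 15 genes lay a median of 27 bp apart, and at most 82 bp. The entries of rps-12 and rps-1 were narrower, at 231 and 141 bp.

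**Figure D4:**
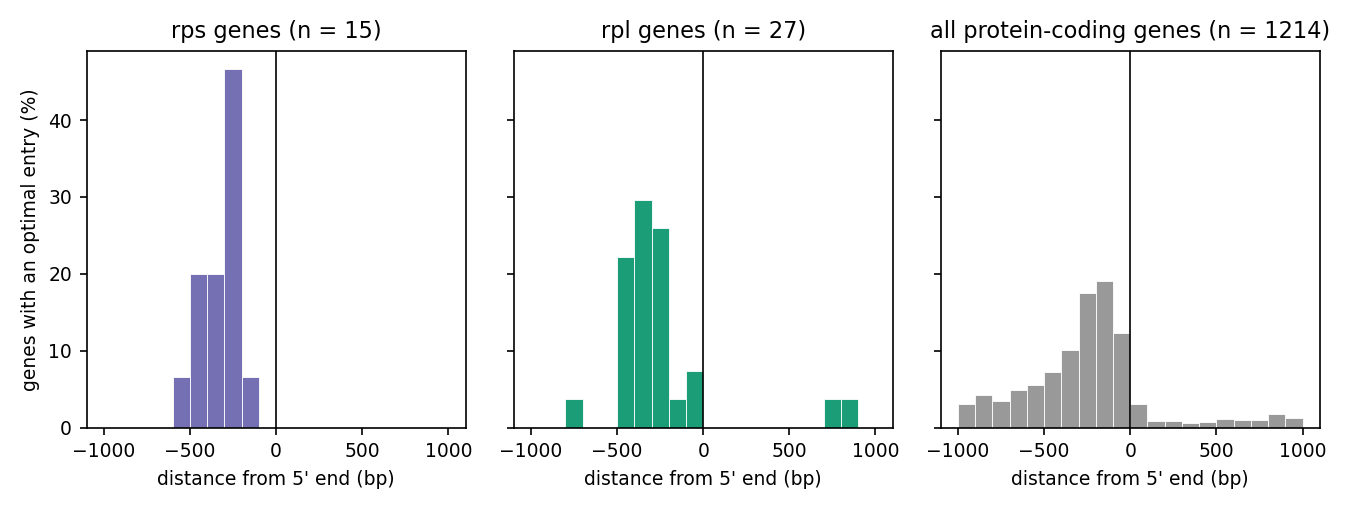
Share of genes (vertical axis, %) by distance of the strongest optimal summit from the 5' end in 100 bp bins (horizontal axis, negative upstream) for the 15 rps genes, the 27 rpl genes and the 1214 protein-coding genes with an optimal entry, which include both. The rps summits all lie upstream with a median of 296 bp, the rpl summits have a median of 330 bp upstream, and those of all genes are spread more widely around 236 bp upstream.

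Many of these peaks stood in an intergenic stretch shared with a neighbour. Of the 15 summits 14 were intergenic, and that of rps-18 lay in a UTR of sec-61.A. The intergenic share over all optimal summits is not given here. In 12 of the 15 the nearest upstream gene was divergent, and in 10 of the 16 rps genes without an optimal entry, against 45.6% of all protein-coding genes. Among the rpl genes it was divergent in 31 of 47 (66.0%). The median gap to the upstream gene was 566 bp for the 15 and 504 bp for the 16, against 1003 bp for all protein-coding genes.

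At 11 of the 15 another protein-coding 5' end lay within 1000 bp of the summit, and at 7 it was nearer than that of the rps gene. These shares over all optimal summits are not given here. The rps-12 summit was 129 bp upstream of ska-3, which encodes a kinetochore protein, and 164 bp upstream of rps-12. The rps-26 summit lay 26 bp upstream of tmem-107, that of rps-29 60 bp upstream of snt-2, a synaptotagmin gene, and that of rps-18 48 bp inside sec-61.A, for the protein-conducting channel. The summits of rps-19, rps-20 and rps-23 lay 157 bp upstream of hsr-9, 148 bp upstream of ekl-4 and 248 bp upstream of dpm-3. Which gene of a pair a peak belongs to was not tested. The summits of rps-1, rps-4, rps-11, rps-14, rps-15, rps-24, rps-25 and rps-28 were nearest to the rps gene itself, and at rps-4, rps-11, rps-24 and rps-25 no other 5' end lay within 1000 bp.

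In 3 members the divergent neighbour was a large-subunit gene. The rps-14 summit (signal 119) lay 213 bp upstream of rps-14 and 450 bp upstream of rpl-36. The pairs of rps-10 with rpl-24.1 (95.4) and rps-30 with rpl-39 (89.5) shared entries that did not reach the optimal list. Non-coding RNA genes lay within 250 bp of 3 of the 15 summits, with no share over all optimal summits given here. They were the snoRNA gene F54E7.10, 244 bp from the rps-12 summit, the snoRNA gene F39B2.14, 87 bp from the rps-26 summit, and the ncRNA genes F56F3.10 and F56F3.11 at rps-1, of which the first spans the summit.

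The counts were near those of the large-subunit genes: 15 of 31 rps genes (48.4%) had an optimal entry, with a median signal of 156, and 27 of 47 rpl genes (57.4%), with a median of 162. The highest rps signal, 526, lay below 4 rpl signals, of which the lowest was 610 at rpl-20 and the highest 1042 at rpl-3. Among the mitochondrial mrps genes 3 of 29 (10.3%) had one, against 6.08% of all protein-coding genes. Those of mrps-28 (-998 bp) and mrps-21 (-940 bp) lay near the edge of the window, and within 500 bp mrps-7 alone remained, 1 of 29 (3.45%), against 4.5% of all. No test of these differences was made.

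Of 6 further genes of the cytosolic ribosome, 3 had an optimal entry (against 6.08% of all protein-coding genes). They were ubq-2 (signal 160, 490 bp upstream), which encodes a ubiquitin fusion to a large-subunit protein, ubl-1 (119, 154 bp upstream), a ubiquitin-like fusion to the small-subunit protein eS31, and rack-1 (107, 211 bp upstream), for the scaffold bound to the head. The stalk genes rla-0, rla-1 and rla-2 had pooled entries only (55.6, 59.1 and 60.1). Of 13 nucleolar and ribosome assembly genes, 3 had an optimal entry (against the same 6.08%), namely pro-1 (signal 244), fib-1 (153) and nol-56 (121). The products of fib-1 and nol-56 belong to the particles that methylate ribosomal RNA. Another 4 had a pooled entry only, rbd-1 (97.7), dao-5 (54.4), riok-1 (52.9) and nol-58 (51.2), while byn-1, riok-2, lpd-6, pro-2, pro-3 and nst-1 had none in either list. A pooled entry was present at 6 of the 6 ribosome genes and 7 of the 13 assembly genes, against 25.2% of all protein-coding genes.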

How the data were processed

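Peak lists of 2 HIM-1-eGFP ChIP-seq replicates were used, in the ce11 build. Per the deposited text, each replicate's list and the pooled list hold peaks and background and derive from the replicates' alignments and 1 further file common to all, which is also the other input of the control-normalized tracks listed there. The optimal list derives from these lists and was thresholded by IDR. The signal value of each entry and its −log10 q-value are as deposited by the authors. No label or file header read here names the aligner or the peak caller, and lists in ce10 were not used here. Depth is unknown.

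Summits were set against 5' ends of protein-coding transcripts (Ensembl release 115, WBcel235, MtDNA left out). A gene had an entry when a summit lay within 1000 bp of any of its 5' ends, and the strongest entry was used. Entries of different lists matched when they overlapped by at least 1 bp. Ranks follow the signal value. The assignment was tested on planted entries. The scripts ran in Python 3.11.15 with NumPy 2.4.6 and SciPy 1.17.1; figures were drawn with matplotlib 3.10.9. No significance test was made, since 1 group of 2 samples offers no contrast and genes are not replicates. All 31 members are named, with full values for those with an optimal entry and for the 3 highest of the others. The members, lists and motifs were chosen with earlier results of these data known. Other windows, 5' ends, thresholds and each replicate alone were tried.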

Additional observations from a re-analysis of the deposited data

How the results depend on the processing

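The counts of genes with an optimal summit within 1000 bp were 15 rps, 27 rpl and 1214 protein-coding genes. They stayed within 1.5 times of these with a 500 bp window, with the outermost 5' end, with any base of the entry and with either replicate alone (14 to 15 rps, 24 to 29 rpl and 898 to 1381 protein-coding genes). In the 898 optimal entries with the highest signal they did so for rps (10) and rpl (18), while all protein-coding genes numbered 640. A 250 bp window gave 4 rps, 6 rpl and 569 protein-coding genes. All pooled entries gave 29 rps, 43 rpl and 5026 protein-coding genes. Counting a summit only for the gene with the nearest 5' end, an alternative added after seeing the data, gave 8 rps, 17 rpl and 924 protein-coding genes. The 15 rps genes with entries in both replicates' lists too became 2 with a 250 bp window.

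The median signal of 156 became 238 over those 898 entries, and was 71.1 without replicate 1 and 97.1 without replicate 2, whose lists have other scales. The median position of -296 bp was -293 without replicate 1 and -318.5 without replicate 2. The median rank of 765 was 645.5 with a 500 bp window, 245.5 over the 898 entries, of which there are fewer, and 660 without replicate 1 and 731 without replicate 2. For signal, position and rank, the medians without replicate 1 cover 15 genes, with rps-8 and rps-10 in place of rps-11 and rps-25. Those without replicate 2 cover 14 genes, rps-25 being absent. No paired analysis was possible because there was 1 group. Depth is unknown, so weak entries cannot be told from background by counts of reads.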
